A study of Homo sapiens with 6 samples.

Results

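The genes of the aminoacyl-tRNA synthetases, the enzymes that load each amino acid onto its tRNA, were followed in Meg-01 cells treated with propionate (C3). The 35 members were taken by symbol from the 58735 genes of the deposited count table and comprised 19 genes of the cytosolic and 16 of the mitochondrial enzymes. Each symbol matched 1 row, and all 35 genes had enough counts to be tested. The rule used no measured value, but the members were proposed with earlier results of these data known. Cytosolic members carry the suffix 1, together with the subunit genes FARSA and FARSB, and mitochondrial members carry the suffix 2.

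Meg-01 cells are an established human line of megakaryoblasts, the precursors of megakaryocytes, and neither group carried an added genetic change. The control group (n = 3 libraries) received no treatment. The C3 group (n = 3 libraries) received 500 µM sodium propionate for 48 h according to the labels, and the methods also name a shorter incubation. Both groups grew in RPMI medium with fetal calf serum and added glutamine. The study calls these libraries technical replicates, so p-values measure the spread between libraries and may not cover the variation between cultures.

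Total counts ranged from 16159449 to 22821722 per library. Per library, cytosolic members had 748 to 10954 and mitochondrial members 27 to 2615 raw counts. Among 10 megakaryocyte markers, GATA1, ITGA2B, FLI1 and TAL1 had TMM-normalized counts (counts scaled to a common effective library size) of at least 1759 in every library, whereas PF4 and GP1BB were at 0 in all 6. Of the 8 markers tested, GP1BA fell by 0.49 on the log2 scale and ITGB3 rose with a log2 fold change of 0.34. Of the markers of other cell types, MS4A1 and CD14 had at most 5.3, CD3E and ALB at most 21.6, EPCAM 164 to 215 and PECAM1, which megakaryocytes also express, 646 to 801 normalized counts per library, while the myeloid marker LYZ fell from 598 to 634 in control to 421 to 437 in C3 libraries and COL1A1 rose from at most 5.9 to at least 10.5. The part of these markers in the synthetase results was not tested.

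Protein synthesis needs a charged tRNA for every amino acid, and cells keep separate synthetases for the cytosol and for the mitochondrial matrix. Nearly all mitochondrial enzymes are encoded by nuclear genes of their own, whereas GARS1 and KARS1 each make both forms from the same gene. Several cytosolic enzymes are held in a multi-synthetase complex, and the enzymes fall into class I and class II by the fold of their catalytic domain. Many cytosolic synthetase genes are known targets of ATF4, the transcription factor of the amino acid response, which binds the C/EBP-ATF response element.

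The core of this element, TGATGNAA (N is any base, read on both strands), was searched in RefSeq promoters of GRCh38.p14 that span 250 bases before and 50 bases after the gene start. Promoters were in the table for 16 of the 19 cytosolic members (not LARS1, VARS1 and YARS1) and for 14 of the 16 mitochondrial members (not AARS2 and VARS2). The core was found in 6 of the 16 cytosolic promoters (37.5%), in 1 of the 14 mitochondrial promoters (7.14%) and in 3.62% of all 35116 promoters. All 6 cytosolic carriers were among the 12 cytosolic genes listed as linked to ATF4, of which 10 had a promoter in the table. A match is a description of letters and not a binding site. The windows are shown because they mark the members that an ATF4 response would be looked for in, and capitals mark the core on the strand of the gene, where TTNCATCA is its reverse complement. They lie at chr16:70289676-70289703 (AARS1, minus strand), chr11:3057408-3057435 (CARS1, minus), chr9:92293693-92293720 (IARS1, minus), chr12:57488054-57488081 (MARS1, plus), chr18:57621805-57621832 (NARS1, minus), chr5:33440957-33440984 (TARS1, plus) and chr12:32756077-32756104 (YARS2, minus).
AARS1: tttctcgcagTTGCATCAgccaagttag
CARS1: ggggcggcggTTGCATCAgattctagga
IARS1: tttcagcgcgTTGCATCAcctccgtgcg
MARS1: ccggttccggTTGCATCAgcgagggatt
NARS1: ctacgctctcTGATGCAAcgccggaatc
TARS1: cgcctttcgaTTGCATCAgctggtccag
YARS2: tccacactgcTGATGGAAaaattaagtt

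To ask whether C3 changed the expression of the synthetases, both groups were tested against each other with edgeR (quasi-likelihood test) over 15078 genes with Benjamini-Hochberg adjustment. A gene rose or fell where the adjusted p-value was below 0.05. The term DEG is kept for the gates of the study, which ask for a fold change above 1.3 (a log2 value beyond 0.38) together with an adjusted p-value below 0.01. Few synthetase genes changed, and each change was small. Of the 19 cytosolic members, 2 fell (QARS1 and WARS1), 0 rose and 17 passed in neither direction. Of the 16 mitochondrial members, 2 fell (WARS2 and VARS2), 0 rose and 14 passed in neither direction. Across all genes tested, 8.77% fell and 11.0% rose, against 4 of the 35 members (11.4%) that fell. The share of members that fell was thus near that of all genes. In such bulk RNA, fewer cells of a kind and less RNA per cell cannot be told apart. Without adjustment, at a p-value below 0.05, 8 members were lower and 0 higher, against 15.3% of all genes lower and 16.8% higher. DESeq2 and limma-voom likewise called 0 members of either list higher. QARS1 was the only DEG among the 35 members, where 1.47% of all genes were DEGs with lower and 5.05% with higher expression.

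**Figure D1:**
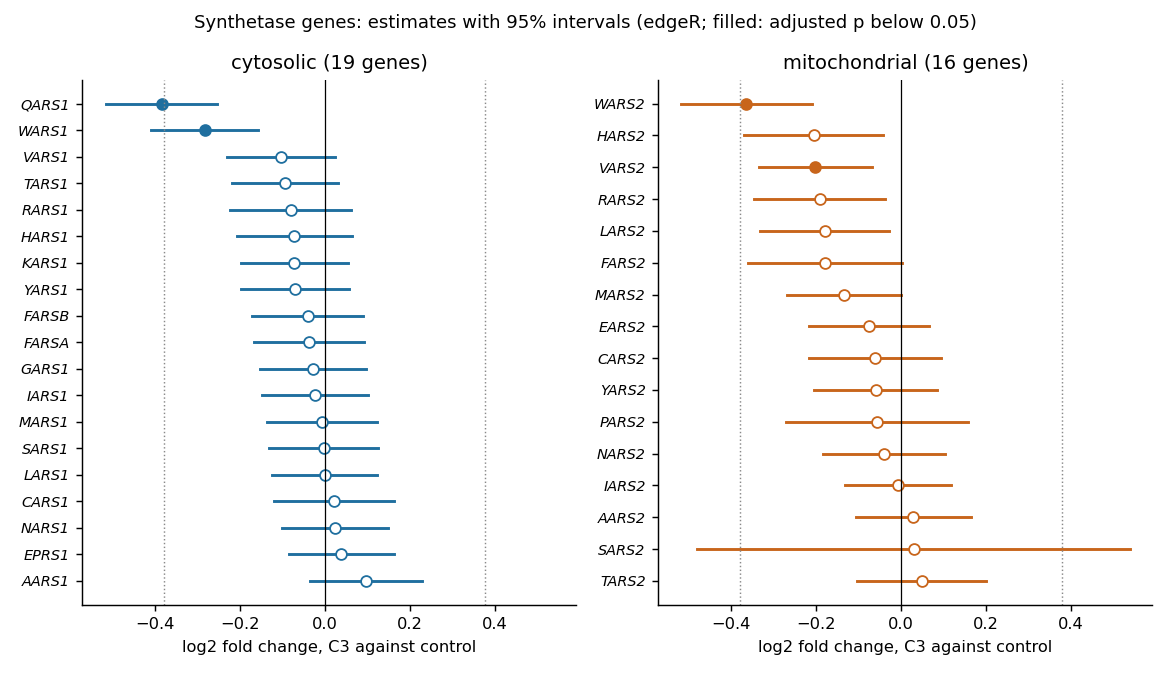
Log2 fold change of each synthetase gene after C3 treatment (horizontal axis) with its 95% interval from edgeR, for 19 cytosolic (left) and 16 mitochondrial (right) genes. Filled points had an adjusted p-value below 0.05 and dotted lines mark a fold change of 1.3 in either direction. QARS1, WARS1, WARS2 and VARS2 are filled and lie left of 0, and the interval of SARS2 is the widest.

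QARS1 (ENSG00000172053), the cytosolic glutaminyl-tRNA synthetase and a member of the multi-synthetase complex spans positions 49095932 to 49105130 of chromosome 3 (GRCh38, minus strand). In normalized counts it measured 6716, 6921 and 6990 in the control libraries and 5671, 5016 and 5136 in the C3 libraries. All C3 libraries lay below all control libraries, and C3 replicate 1 was the highest of its group. The group means were 6876 ± 142 and 5274 ± 349 (SD, n = 3 each), a fall of 23.3%. The log2 fold change of -0.38 had a standard error of 0.064 (edgeR, adjusted p = 0.000106). QARS1 ranked 318 of all genes tested by p-value. Its call rests on the fold change gate. The estimate of -0.383 lay just inside the gate at 0.3785 and was between -0.435 and -0.346 with each library left out. QARS1 fell short of the gate, though its adjusted p was at most 0.00253 by edgeR, without control replicate 2 or 3 or without C3 replicate 2 or 3. The microRNA gene MIR6890 lies within its exons.

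WARS1 and WARS2, the tryptophanyl-tRNA synthetases of the cytosol and of mitochondria, both fell. WARS1 (ENSG00000140105), which is also known as an interferon-inducible gene, spans positions 100333790 to 100376805 of chromosome 14 (minus strand). It had normalized counts of 3654, 3640 and 3724 in control and of 3203, 2930 and 2931 in C3 libraries. The groups did not overlap, and C3 replicate 1 was again the highest C3 library. This was a fall of 17.8%, or a log2 fold change of -0.28 (standard error 0.062, edgeR, adjusted p = 0.00182). Of the exon bases of WARS1, 10.6% overlap genes of the other strand, and the strand setting of the counting is not given in the sources used here.

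WARS2 (ENSG00000116874), at positions 119031216 to 119140654 of chromosome 1 (minus strand), was expressed at a much lower level. Its normalized counts were 668, 662 and 688 in control and 527, 508 and 533 in C3 libraries. The libraries of each group lay close together and the groups were well apart. The log2 fold change of -0.36 (standard error 0.075) was the largest fall of a mitochondrial member, 22.3% (edgeR, adjusted p = 0.00111). It lay just outside the fold change gate, so WARS2 was not a DEG. Both genes kept an adjusted p-value below 0.05 in each of the 13 alternative fits. The antisense gene WARS2-AS1 covers 4.39% of the exon bases of WARS2.

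VARS2 (ENSG00000137411), the mitochondrial valyl-tRNA synthetase, spans positions 30914205 to 30926459 of chromosome 6 (plus strand). Its normalized counts were 2197, 2058 and 1976 in control and 1892, 1725 and 1810 in C3 libraries, so the groups were close but did not overlap. Its log2 fold change of -0.20 had a standard error of 0.065 (edgeR, adjusted p = 0.0278). The call rests on single libraries. The adjusted p of that test rose to 0.18 without control replicate 1, to 0.0903 without control replicate 2, to 0.14 without C3 replicate 2 and to 0.107 without C3 replicate 3. In the annotation used here 63.0% of its exon bases are shared with ENSG00000288473, which has no row in the count table used here.

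**Figure D2:**
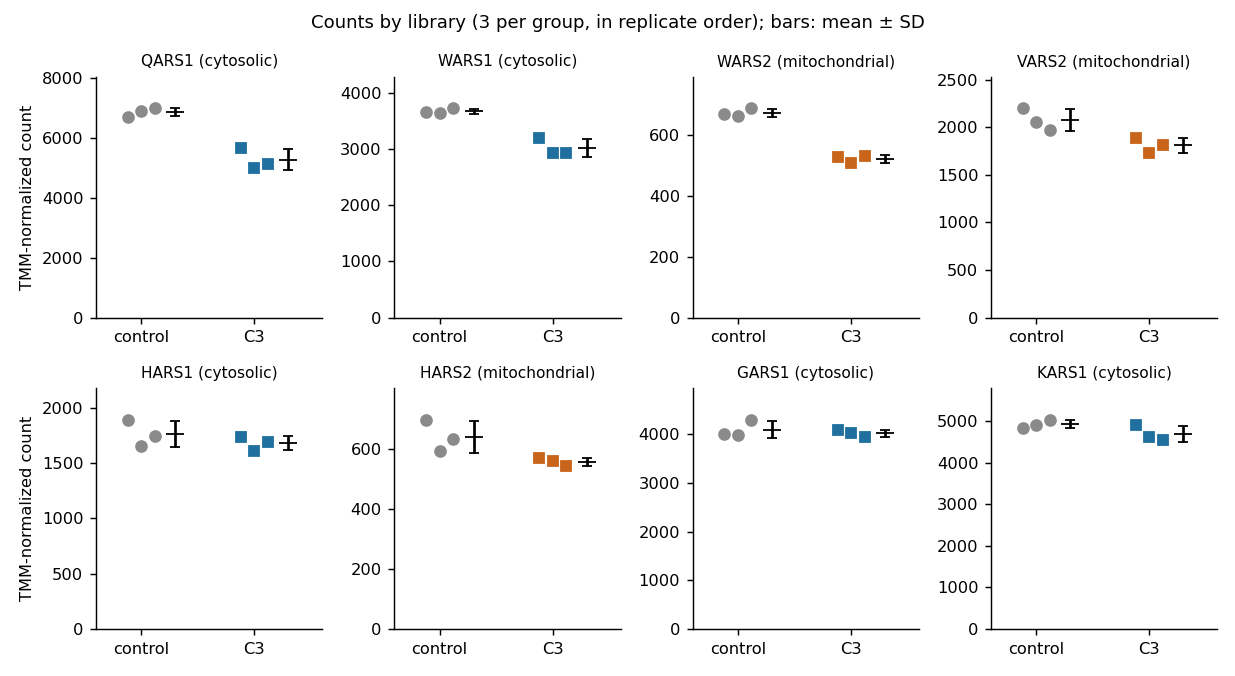
TMM-normalized counts (vertical axis, from 0) of 8 synthetase genes in each of the 3 control (circles) and 3 C3 (squares) libraries, with the mean and SD of each group beside them. In QARS1, WARS1, WARS2 and VARS2 all C3 libraries lie below the control libraries, as they do in HARS2, whereas HARS1, GARS1 and KARS1 overlap.

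All 4 members that fell are class I enzymes. Of the 19 class I members of both compartments 4 fell, and of the 16 class II members 0 fell by edgeR, while 7 and 1 were lower before adjustment (p-value below 0.05), where 8.77% of all genes fell and 15.3% were lower before adjustment. The difference between the classes was not tested. The median log2 fold change was -0.074 for class I and -0.038 for class II, against 0.0021 over all genes tested. In the multi-synthetase complex 1 of 7 enzyme genes fell (QARS1), a count too small to set against that share. The other 6 members, EPRS1, IARS1, KARS1, LARS1, MARS1 and RARS1, had log2 fold changes from -0.080 to 0.039 and passed in neither direction.

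To show sequence near the start of members that fell, 120 bases upstream of the RefSeq start are given for QARS1 (chr3:49104758-49104877, minus strand), WARS1 (chr14:100376328-100376447, minus) and WARS2 (chr1:119140673-119140792, minus), from GRCh38.p14. The gene spans given above come from GENCODE, where the outermost start can differ. The QARS1 and WARS1 stretches lie within those spans, and only the WARS2 stretch lies before both starts. None of the 3 promoters held TGATGNAA in its 300 bases. Capitals mark CCGGAAG or its reverse complement CTTCCGG, the core bound by ETS transcription factors, a search chosen after the values were seen. It was found in 8 of 16 cytosolic (50%), 6 of 14 mitochondrial (42.9%) and 10.3% of all promoters. The promoter windows of the head-to-head neighbours HARS1 and HARS2 overlap, so the same matches are counted in both lists. WARS1 held it 2 times, once within the stretch shown, and QARS1 and WARS2 did not hold it.
QARS1: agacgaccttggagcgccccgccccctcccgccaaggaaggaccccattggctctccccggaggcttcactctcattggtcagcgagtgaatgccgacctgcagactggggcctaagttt
WARS1: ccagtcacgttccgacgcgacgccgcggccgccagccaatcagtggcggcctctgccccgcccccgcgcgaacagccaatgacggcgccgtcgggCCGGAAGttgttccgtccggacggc
WARS2: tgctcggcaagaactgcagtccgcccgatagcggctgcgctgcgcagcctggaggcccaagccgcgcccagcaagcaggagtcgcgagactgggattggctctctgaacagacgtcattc

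The 17 cytosolic members that passed in neither direction stayed close to their control level. Their log2 fold changes ran from -0.10 (VARS1) to 0.10 (AARS1), with standard errors of 0.060 to 0.070. The 95% interval of each of the 17 lay within a 1.3-fold change in either direction, and the outermost bounds were -0.23 (VARS1) and 0.23 (AARS1). LARS1, the leucyl-tRNA synthetase that also reports leucine to mTORC1, had 5706, 5674 and 5963 normalized counts in control and 5765, 5676 and 5899 in C3 libraries. These values lay fully within each other. GARS1 had 4013, 3984 and 4301 in control and 4092, 4024 and 3950 in C3 libraries, with a log2 fold change of -0.027. KARS1 had 4839, 4921 and 5037 in control and 4908, 4624 and 4559 in C3 libraries, with a log2 fold change of -0.071. Neither of these genes of both compartments passed the test (adjusted p of 0.807 and 0.46 by edgeR). TARS1, the threonyl-tRNA synthetase, had C3 libraries all below the control libraries, with a log2 fold change of -0.093 (edgeR, adjusted p = 0.313).

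The 12 cytosolic genes linked to ATF4 had a median log2 fold change of -0.0044. By edgeR 1 of them fell (WARS1, 8.33%, near the 8.77% of all genes), while 0 rose, against 11.0% of all genes. The 6 carriers of the promoter core had log2 fold changes of 0.098 (AARS1), 0.025 (NARS1), 0.021 (CARS1), -0.0064 (MARS1), -0.023 (IARS1) and -0.093 (TARS1), and none passed the test. AARS1, the alanyl-tRNA synthetase, had 4126, 4227 and 4019 normalized counts in control and 4748, 4126 and 4371 in C3 libraries. Here the groups overlapped (edgeR, adjusted p = 0.311). Scaled by library size alone, AARS1 had a log2 fold change of 0.17 and an adjusted p of 0.0408, the lowest of its 13 alternatives, which reached 0.584. The other 7 cytosolic genes (FARSA, FARSB, HARS1, KARS1, QARS1, RARS1 and VARS1) had negative values and a median of -0.071, although FARSA, FARSB, HARS1 and KARS1 turned positive with library size alone, which raised the median of all genes to 0.076.

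The 14 mitochondrial members that passed in neither direction ranged from -0.20 (HARS2) to 0.049 (TARS2) on the log2 scale. In 13 of them the 95% interval lay within a 1.3-fold change. The exception was SARS2, the mitochondrial seryl-tRNA synthetase, with an interval from -0.48 to 0.54. Its normalized counts were 37.2, 50.9 and 32.2 in control and 34.1, 46.9 and 41.6 in C3 libraries, the lowest of all members. SARS2 shares 48.2% of its exon bases with ENSG00000269547 on the same strand, which was at 0 in all libraries, so how reads on the shared exons were counted is uncertain. HARS2, RARS2, LARS2 and MARS2 were lower at an unadjusted p-value below 0.05 but had adjusted p of 0.0704, 0.0727, 0.0917 and 0.154 by edgeR. RARS2, the mitochondrial arginyl-tRNA synthetase, had 709, 680 and 764 normalized counts in control and 631, 612 and 642 in C3 libraries, without overlap. LARS2, its leucyl counterpart, had 1195, 1298 and 1198 in control and 1201, 975 and 1089 in C3 libraries. Here C3 replicate 1 lay among the control libraries and the other C3 libraries below them. YARS2, the mitochondrial tyrosyl-tRNA synthetase, had 741, 744 and 746 in control and 714, 712 and 715 in C3 libraries, without overlap, but its log2 fold change was only -0.060 (edgeR, adjusted p = 0.606). Of the exon bases of YARS2, 18.1% overlap a gene of the other strand.

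In the mitochondrial list, C3 replicate 1 lay closer to the control libraries than the other C3 libraries did. The median over the 16 mitochondrial members, as the log2 difference from the control mean, was -0.037 in C3 replicate 1, -0.15 in C3 replicate 2 and -0.14 in C3 replicate 3, and -0.0090 to -0.00050 in the control libraries. Without C3 replicate 1, 5 mitochondrial members fell by edgeR (LARS2, FARS2 and MARS2 besides WARS2 and VARS2), with adjusted p of 0.0105, 0.0294 and 0.0308 for the 3 added genes. The share of all genes that fell also went up, from 8.77% to 12.7%. Without control replicate 1 or 2, or without C3 replicate 2 or 3, only WARS2 fell in this list, and 4.02% to 5.43% of all genes fell. In the cytosolic list 2 members fell whichever library was left out, and the library medians were -0.0070, -0.042 and -0.053 in C3 and -0.019 to 0.024 in control libraries.

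**Figure D3:**
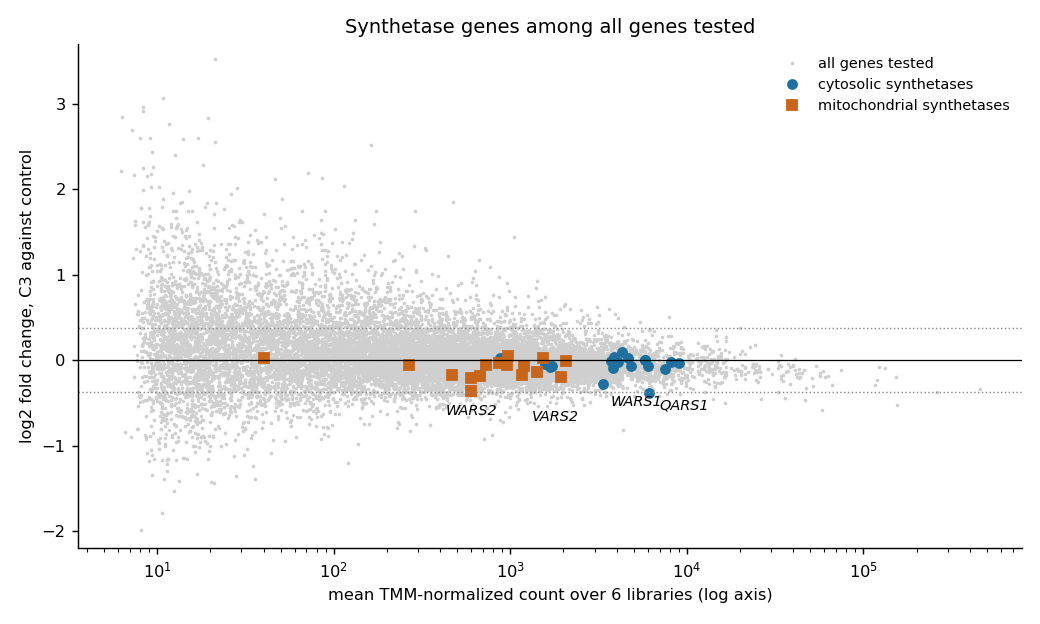
Log2 fold change after C3 treatment (vertical axis) against the mean TMM-normalized count (log horizontal axis) for all 15078 genes tested (grey), 19 cytosolic (circles) and 16 mitochondrial (squares) synthetase genes. Dotted lines mark a fold change of 1.3, and all members except QARS1 lie between them.

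Over the libraries as a whole, C3 libraries were all below the control libraries in 9 of the 35 members and all above them in 0, where 16.9% of all genes tested lay below and 17.5% above. These 9 were QARS1, WARS1 and TARS1 of the cytosolic and WARS2, VARS2, HARS2, RARS2, MARS2 and YARS2 of the mitochondrial members. For each, the exact two-sided permutation test of the normalized counts gave p = 0.1, below which a design of 3 against 3 libraries cannot go. Of the 35 members 28 had a negative and 7 a positive log2 fold change. This balance depends on the scaling. With library size alone, the median moved from -0.037 to 0.035 for the cytosolic and from -0.068 to 0.0053 for the mitochondrial list, while that of all genes moved from 0.0021 to 0.076.

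To compare the compartments, the medians of both lists were set side by side. The median log2 fold change was -0.037 for cytosolic and -0.068 for mitochondrial members, a difference of 0.031. Without C3 replicate 1 the difference was 0.082, and without control replicate 3 it was 0.077. Summed over members, cytosolic CPM (TMM-scaled) were 4713, 4756 and 4806 in control and 4690, 4478 and 4502 in C3 libraries. Mitochondrial sums were 869, 862 and 847 in control and 843, 773 and 798 in C3 libraries. By this TMM scaling both sums were lower in every C3 library than in any control library, though C3 replicate 1 was close to the lowest control library. This order depends on the scaling and does not hold with library size alone. In that fit the median log2 fold change was 0.035 for cytosolic and 0.0053 for mitochondrial members, and 0.076 for all genes.

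For the 16 pairs of a cytosolic and a mitochondrial enzyme of the same amino acid, the ratio of their counts was taken within each library, which removes the scaling between libraries. EPRS1, a fusion enzyme for glutamate and proline, was paired with both EARS2 and PARS2. The log2 ratio changed by -0.14 to 0.18 after C3 treatment, with a median of 0.088. In 4 pairs (HARS, MARS, VARS and WARS) every C3 library lay above the control libraries, in 0 below, and in 12 they overlapped. The exact permutation p-value of each of the 4 was 0.1, the smallest that this test can give with 3 against 3 libraries, and 0.4 after Benjamini-Hochberg adjustment over the 16 pairs.

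HARS1 and HARS2, the histidyl-tRNA synthetases, are head-to-head neighbours on chromosome 5 whose annotated starts overlap by 107 bases. HARS1 (from 140673035 to 140691537, reverse strand) had 1892, 1654 and 1746 normalized counts in control and 1738, 1611 and 1691 in C3 libraries. HARS2 (from 140691430 to 140699305, forward strand) had 696, 591 and 632 in control and 568, 558 and 541 in C3 libraries. The groups overlapped for HARS1 but not for HARS2, and neither passed the test (adjusted p of 0.497 and 0.0704 by edgeR). Their log2 ratio was 1.44, 1.49 and 1.47 in control and 1.61, 1.53 and 1.64 in C3 libraries, a mean difference of 0.13 with an exact permutation p-value of 0.1. HARS1 shares 8.46% of its exon bases with HARS2 and WDR55 on the other strand.

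The largest change in ratio was that of LARS1 to LARS2, with log2 ratios of 2.26, 2.13 and 2.32 in control and 2.26, 2.54 and 2.44 in C3 libraries. The mean difference was 0.18, but the groups overlapped through C3 replicate 1 (exact permutation p = 0.2). The smallest was that of YARS1 to YARS2, which went from 3.06 ± 0.015 to 3.05 ± 0.068 (SD, n = 3), a difference of -0.010 (exact permutation p = 0.9). For the tryptophan pair the log2 ratio was 2.451, 2.460 and 2.437 in control and 2.604, 2.527 and 2.461 in C3 libraries, so the lowest C3 library barely exceeded the highest control library. Both of its genes fell, and the ratio differed by 0.081.

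**Figure D4:**
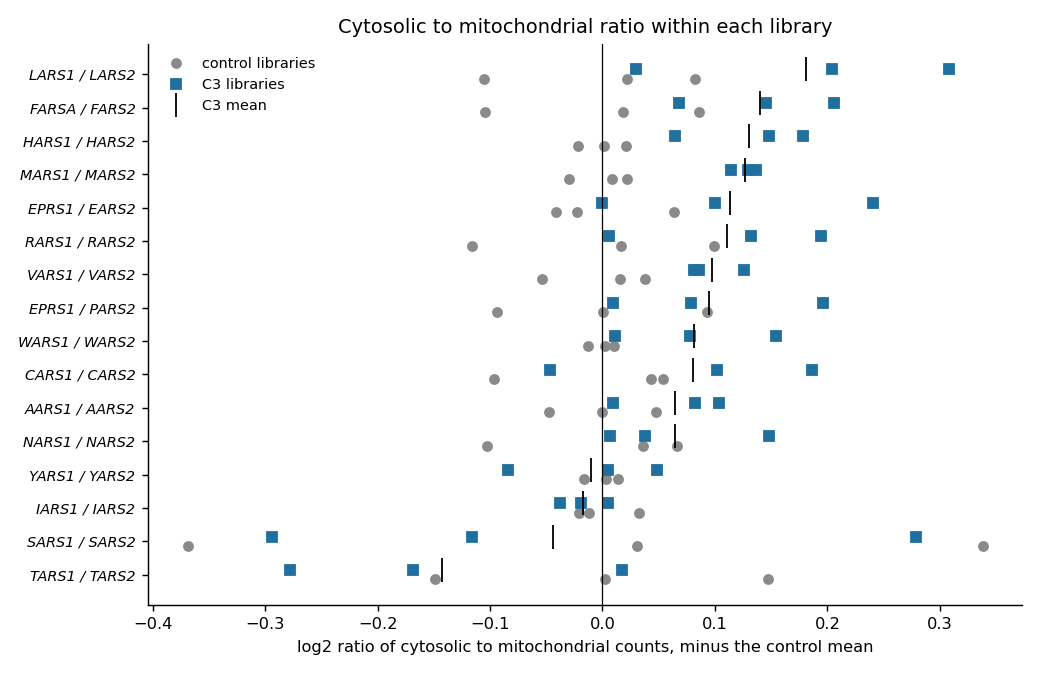
Log2 ratio of cytosolic to mitochondrial counts within each library, minus the mean of the control libraries (horizontal axis), for 16 enzyme pairs. Circles are control libraries, squares are C3 libraries and vertical ticks are C3 means. The C3 libraries lie right of the control libraries in the HARS, MARS, VARS and WARS pairs and overlap them in the other 12.

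Levels of different genes were compared only per length, as CPM per kilobase. With the length of the Ensembl canonical transcript, chosen after the data were seen, the median control level was 79.5 for cytosolic and 17.1 for mitochondrial members, a ratio of 4.64. With merged exons, which include rarely used ones, the medians were 31.0 and 9.31 and the ratio 3.33. No mitochondrial gene exceeded the cytosolic median by either length. By canonical length FARSA, the catalytic subunit of cytosolic phenylalanyl-tRNA synthetase, was highest at 269 ± 4.50 (SD, n = 3), followed by SARS1 at 162 ± 5.62 and QARS1 at 151 ± 3.12. FARSB, which encodes the partner subunit, was the lowest cytosolic member by this length at 12.7 ± 0.570, whereas CARS1 was lowest by merged exons at 4.63. In this order the neighbours GARS1 (90.4 ± 3.86) and NARS1 (89.0 ± 3.77) differed by less than their spread. By the same canonical length IARS2 (31.5 ± 0.470) and VARS2 (31.2 ± 1.68) were the highest mitochondrial members and differed by less than the SD of either. PARS2 (6.19 ± 0.410) and SARS2 (1.12 ± 0.270) were lowest. The SARS2 level is uncertain, since 48.2% of its exon bases are shared with another gene of the same strand. IARS2 and SARS2 were also at the ends of the mitochondrial order by merged exons, but VARS2 and PARS2 were not next to them. CARS1 (17.0 ± 0.494) lay below CARS2 (28.6 ± 1.37), the only pair of the 16 with the higher level on the mitochondrial side by canonical length. By merged exons HARS2 (9.23) and IARS2 (26.9) also lay above HARS1 (6.69) and IARS1 (19.7).

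**Figure D5:**
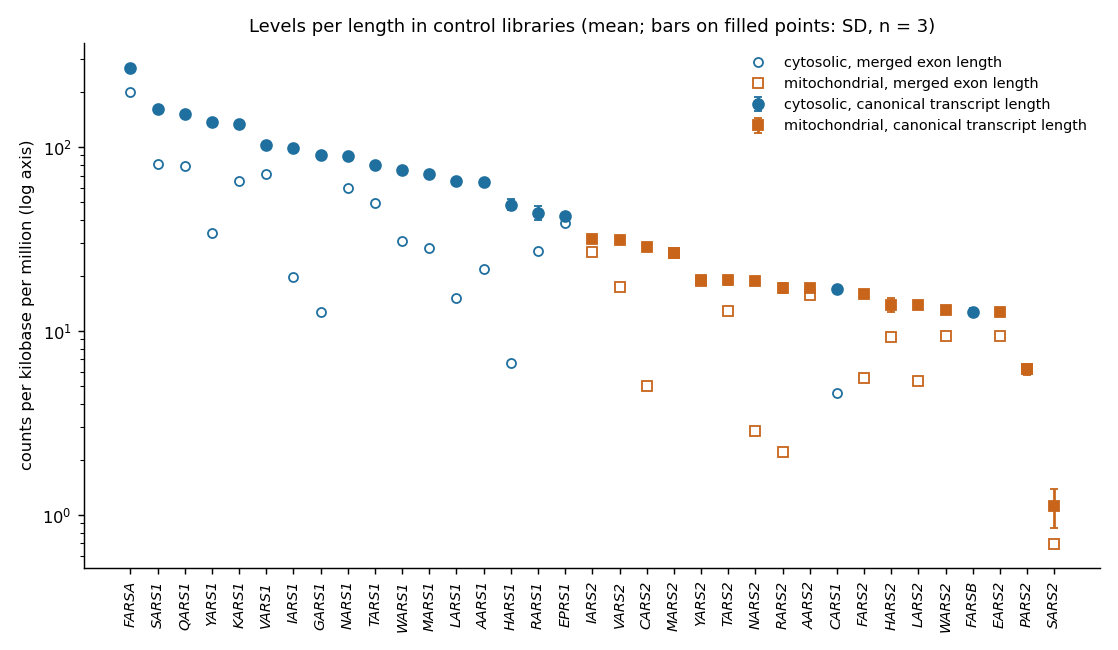
Control level of each synthetase gene in CPM per kilobase (log vertical axis), in descending order by canonical transcript length. Filled points are means with SD over 3 libraries, and open points use merged exon length. Cytosolic genes (circles) fill the first 17 places, and CARS1 and FARSB lie among the mitochondrial genes (squares).

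Of the partners and related enzymes, a list of 18 genes written from general knowledge, 17 were tested (not AARSD1). In this list 2 genes fell (11.8%, against 8.77% of all genes) and 0 rose (against 11.0%) by edgeR, with a median log2 fold change of -0.10. At an unadjusted p-value below 0.05, 5 were lower and 0 higher, against 15.3% of all genes lower and 16.8% higher. QRSL1 encodes a subunit of the amidotransferase that makes mitochondrial glutaminyl-tRNA in place of a mitochondrial glutaminyl-tRNA synthetase. QRSL1 had 845, 870 and 894 normalized counts in control and 742, 740 and 722 in C3 libraries. Its C3 libraries lay fully below the control libraries. The log2 fold change was -0.24 (adjusted p = 0.0143 from edgeR, 0.0614 without control replicate 2 and 0.0844 without C3 replicate 3). GATB, another subunit of that amidotransferase, had a log2 fold change of -0.23 (edgeR, adjusted p = 0.0509). The complex scaffold genes AIMP1, AIMP2 and EEF1E1 had values of -0.13, -0.21 and 0.0086 and did not pass.

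Of 28 amino acid response genes, 27 were tested (not NUPR1), with 2 that rose, 2 that fell (7.41% each, against 11.0% and 8.77% of all genes) and a median log2 fold change of -0.021. ATF4 had 4258, 4252 and 4274 normalized counts in control and 4520, 4450 and 4698 in C3 libraries. All C3 libraries were higher, but the log2 fold change was 0.097 (edgeR, adjusted p = 0.28). ATF5, a related transcription factor, fell by 0.93 on the log2 scale, and PSPH, the last enzyme of serine synthesis, fell by 0.34 (adjusted p of 3.76e-09 and 0.0103 by edgeR). CEBPB and ATF3, which encode partners in the same response, rose with log2 fold changes of 0.38 and 0.31 (adjusted p of 0.00161 and 0.0354 by edgeR). ATF5 and CEBPB kept an adjusted p-value below 0.05 whichever library was left out, and both were DEGs, where CEBPB, at 0.382, lay just inside the fold change gate. CEBPB fell short of the DEG gates without control replicate 2 or C3 replicate 1 or 2. PSPH lost its call without control replicate 3 (0.0983) or C3 replicate 3 (0.0666), and ATF3 lost it without any of 5 libraries, all but C3 replicate 1, with adjusted p of 0.0688 to 0.139 by edgeR.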

How the data were processed

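RNAseq libraries of Meg-01 cells (3 control, 3 C3) were analysed from the deposited table of raw counts per gene. Per the labels and methods, the authors made these raw counts with fastp, STAR (2.6.1d) on GRCh38/hg38 and featureCounts (1.5.0-p3), versions from the submitters' processing notes. Annotation release and strand setting: not given in the sources used here. Columns were matched to samples by group abbreviation and replicate number.

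Genes reaching 10 counts in 3 or more libraries were scaled by TMM factors and tested with edgeR (4.0.16, R 4.3.3) without a replicate block. Standard errors were derived from each log2 fold change and its F statistic. Alternatives were DESeq2 (1.42.0), limma-voom (limma 3.58.1), RLE factors, library size alone, other count filters, a replicate block and each library left out. Exon lengths and coordinates came from GENCODE release 44 on GRCh38, and 58207 of 58735 identifiers had a symbol. The methods were tested on simulated data.

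The members and lists were chosen with earlier results of these data known. By a written rule, full values are given for members that are DEGs, for HARS1, HARS2, GARS1 and KARS1, for the pairs with the largest and smallest change in ratio, and names for DEGs of the other lists. WARS1, WARS2, VARS2, LARS1, AARS1, TARS1, SARS2, RARS2, LARS2, YARS2, ATF4, ATF3, PSPH, GATB, QRSL1 and the tryptophan pair were named after their values were seen. At these depths the spread between libraries corresponded to a coefficient of variation of 6.21%. Values of some single genes of the lists are not reported here.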

Additional observations from a re-analysis of the deposited data

How the results depend on the processing

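QARS1, WARS1 and WARS2 kept their direction and an adjusted p-value below 0.05 in all 13 alternative fits, with log2 fold changes of -0.43 to -0.31, -0.32 to -0.21 and -0.37 to -0.29. VARS2 did so in 8 of 13. The number of cytosolic DEGs with lower expression was 1 and became 0 with library size alone, with no count filter and with a mean count of at least 50, and was 0 to 1 with each library left out. The mitochondrial members that fell numbered 1 with library size alone and 1 to 5 with each library left out. The block on replicate number rests on the number alone. The correlation of deviations was -0.047 to 0.030 between same-numbered libraries and -0.077 to 0.064 between differently numbered ones. These values gave no sign of a pairing by number, though so few libraries cannot exclude one. With the replicate block, the partners that fell numbered 4, the amino acid response genes that rose 4, and LARS2 had an adjusted p-value of 0.0441 (edgeR), against 0.0105 to 0.432 over its 13 alternatives.

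Library size alone, which raised the median of all genes from 0.0021 to 0.076, gave 1 cytosolic member that rose (AARS1, a class II gene linked to ATF4), 1 class I mitochondrial member that fell, 0 partners that fell, and 6 amino acid response genes that rose and 1 that fell. The median log2 fold change became 0.035 for cytosolic and 0.0053 for mitochondrial members. The sign turned for FARSA (0.035), FARSB (0.035), GARS1 (0.047), HARS1 (0.0017), IARS1 (0.050), KARS1 (0.0022), LARS1 (0.074), MARS1 (0.066), SARS1 (0.071), YARS1 (0.0044), CARS2 (0.012), IARS2 (0.068), NARS2 (0.035), PARS2 (0.019) and YARS2 (0.015), none of which passed the test in either fit.

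With no count filter LARS1 (0.010), MARS1 (0.0033), SARS1 (0.0075) and IARS2 (0.0040) turned sign, as they did at a mean count of at least 50 (0.013, 0.0069, 0.011 and 0.0073), and LARS1 did with limma-voom (4.616e-05). With each library left out, the ranges were -0.013 to 0.023 for LARS1, -0.057 to 0.023 for MARS1, -0.038 to 0.023 for SARS1, -0.016 to 0.0064 for IARS2, -0.0028 to 0.058 for NARS1, -0.047 to 0.0087 for GARS1, -0.011 to 0.072 for AARS2 and -0.094 to 0.24 for SARS2. The amino acid response genes that rose and fell numbered 1 and 4 with DESeq2, 1 that rose with no count filter, and 1 to 2 and 1 to 5 with each library left out. The partners that fell then numbered 0 to 4, class I mitochondrial members 1 to 4 and class II mitochondrial members 0 to 1. The highest of these counts of genes that fell came without C3 replicate 1, and no partner fell without control replicate 2 or C3 replicate 3. The mitochondrial median then ran from -0.12 to -0.0701 and the difference of medians from 0.030 to 0.082. It was not moved beyond the spread between libraries without GARS1 and KARS1, or without VARS2 and SARS2, the latter chosen after the data were seen.

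By the DEG gates in place of the adjusted p-value alone, the numbers were 0 partners that fell, 1 amino acid response gene that rose and 1 that fell, 1 class I cytosolic, 0 class I mitochondrial and 0 ATF4-linked members that fell. The level ratio of 3.33 became 4.64 by canonical length. The cause of these shifts was not tested. Low counts limited SARS2 most, and at these counts a change of 1.3-fold was not detectable. Whether its shared exons lowered these counts was not tested.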
